A study of Homo sapiens with 12 samples.

Results

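The genes described here are 10 long noncoding RNA genes that host small nucleolar RNAs (snoRNAs): GAS5, SNHG1, SNHG3, SNHG5, SNHG6, SNHG7, SNHG8, SNHG12, SNHG15 and SNHG16. They were chosen by symbol, with earlier results of these data known, as hosts whose spliced RNA is known to be cleared by nonsense-mediated decay. They make up 10 of the 57820 gene rows of the count table, and 81 of the 170723 splice junctions of the junction table lie within them. RNA was sequenced from 3 chronic lymphocytic leukemia cell lines, JVM3, HG3 and MEC1. Each line was studied with wild-type U1 and with U1 g.3A>C, an A-to-C change at base 3 of the U1 small nuclear RNA, which gives 6 groups. Every group had 2 libraries that the labels call technical replicates, made from total RNA by a stranded protocol with ribosomal RNA removed. Each genotype of a line is thus 1 preparation of cells as far as the labels say, and the sources do not state how the mutation was brought in or whether a group is a clone. P-values within a line therefore measure the spread between technical replicates, and those across lines the spread over 3 lines.

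A snoRNA host gene is transcribed as a longer RNA whose introns carry snoRNAs. After splicing, the excised intron is trimmed to the snoRNA, which guides chemical modification or processing of ribosomal RNA, and the joined exons are left over. In many hosts the joined exons hold only short open reading frames, and translation of these exposes the RNA to nonsense-mediated decay, which removes messages whose stop codon lies upstream of an exon junction. Many of these genes also begin with a terminal oligopyrimidine tract, the start shared by genes for ribosomal proteins and translation factors. U1 recognizes the donor, the 5′ end of an intron, by base pairing. Base 3 of U1 faces base 6 of the intron.

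The sequences that carry the splicing results below come from GENCODE 29 transcripts, build GRCh38. The first is the 5′ end of U1, written with T for U, with base 3 in capitals as wild type and with the change.

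U1, wild type: atActtacctg
U1, g.3A>C: atCcttacctg

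The next is the stretch of GAS5 (chr1:173865465-173865512, minus strand) that holds a pair of competing donors 39 bases apart. The capitals mark the first 6 intron bases at each donor, and the stretch between them is exon when the downstream donor is used.

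GAS5 donor pair: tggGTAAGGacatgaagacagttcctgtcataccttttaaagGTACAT

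The upstream donor has G at intron base 6. Counted over its last 3 exon and first 6 intron bases, it can form 6 of 9 Watson-Crick pairs with wild-type U1 and 7 with the mutant form. The downstream donor has T there, with 6 pairs for wild-type and 5 for mutant U1. The optional exon of SNHG16 (chr17:76558945-76559049, plus strand) is 99 bases long and is shown with the donor that follows it, in capitals.

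SNHG16 exon and donor: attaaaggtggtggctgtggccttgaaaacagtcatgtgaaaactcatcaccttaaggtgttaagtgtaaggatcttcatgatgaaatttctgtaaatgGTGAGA

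The donors of the first introns of SNHG16 (chr17:76557855-76557863, plus strand) and SNHG1 (chr11:62855859-62855867, minus strand) are shown because each is joined to more than 1 acceptor, the 3′ end of an intron.

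SNHG16 first donor: atgGTAAGG
SNHG1 first donor: gtgGTAAGT

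Libraries held 29880079 to 39716818 reads in genes, and the host genes took 0.189% to 0.286% of them. B cell markers summed to 1622 to 2085 CPM (reads of the gene per 1000000 reads in genes) per group. Of the 6 B cell markers 0 passed the edgeR test across lines, with 3 at an unadjusted p under 0.05 and 2 lower by DESeq2, and their part in the results was not tested. Myeloid markers summed to 0.73 to 2.00 CPM. T cell markers summed to 0.644 to 10.4 CPM, CD3G was at 0 in all 12 libraries, and CD4, at 9.79 CPM in wild-type JVM3, was the 1 T cell marker that reached 1 CPM in a group. Gene counts do not show the base at position 3 of U1, so the mutation itself could not be checked in these files. Reads that aligned to more than 1 place made up 29.02% to 34.92% of all records and were not assigned to genes.

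With mutant U1 the host genes did not move as 1 group. Over the 3 lines, SNHG1 rose 1.31-fold and the other 9 did not pass the edgeR test, by which 1.83% of all genes rose and 1.86% fell. Within JVM3 6 of the 10 rose and 0 fell (2 and 0 without replicate 1 of either group), beside 10.4% and 12% of all genes. Within HG3 7 rose and 0 fell, beside 18.7% and 19.6%. Within MEC1 3 rose and 2 fell, beside 18% and 18.6%, shares not far from those of all genes. SNHG1 and SNHG12 were the members that rose in each line. Changes were small, between a decrease of 0.18 and an increase of 0.55 on the log2 scale. At the same time 3 of the genes, GAS5, SNHG16 and SNHG1, had splice site changes called by edgeR, of 21.7 to 41.9 percentage points in the mean of the lines. The SNHG1 change could be tested only among junctions sharing a donor. A test of log ratios with limma called 0 host junctions, and the share of all genes with a called junction was not counted.

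In wild-type cells the hosts differed widely in abundance. On the scale of CPM per kilobase of exon, SNHG3 was highest at 219.7 ± 10.9 (SD, n = 3 lines). In spliced reads it was not, with 73.1, 151.5 and 156.6 per 1000000 junction reads in wild-type JVM3, HG3 and MEC1, against 798, 1019 and 926 for GAS5, over the introns listed in the junction table. SNHG8 followed at 127.8 ± 5.47 and GAS5 at 104.2 ± 11.9. Each of these 3 lay above the next gene in the order in every line, although the lowest GAS5 value, 90.6, and the highest SNHG6 value, 89.7, nearly met. SNHG6 (60.7 ± 25.1), SNHG16 (51.1 ± 11.2), SNHG1 (47.1 ± 16.0) and SNHG5 (41.1 ± 13.1) followed, and their neighbours' ranges overlapped. SNHG15 (20.7 ± 4.77), SNHG7 (18.9 ± 10.3) and SNHG12 (14.3 ± 1.60) were lowest, with SNHG15 below SNHG5 in every line and the last 3 overlapping. Lengths are the union of exons in GENCODE 29, which may differ from the release used for counting. SNHG1, SNHG5, SNHG6, SNHG7 and SNHG15 were higher in both wild-type libraries of MEC1 than in those of JVM3 and HG3, and SNHG8 and SNHG16 were likewise highest in HG3. The share of all genes that separate wild-type lines in this way was not counted, so whether these orders are particular to the hosts is not known.

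**Figure D1:**
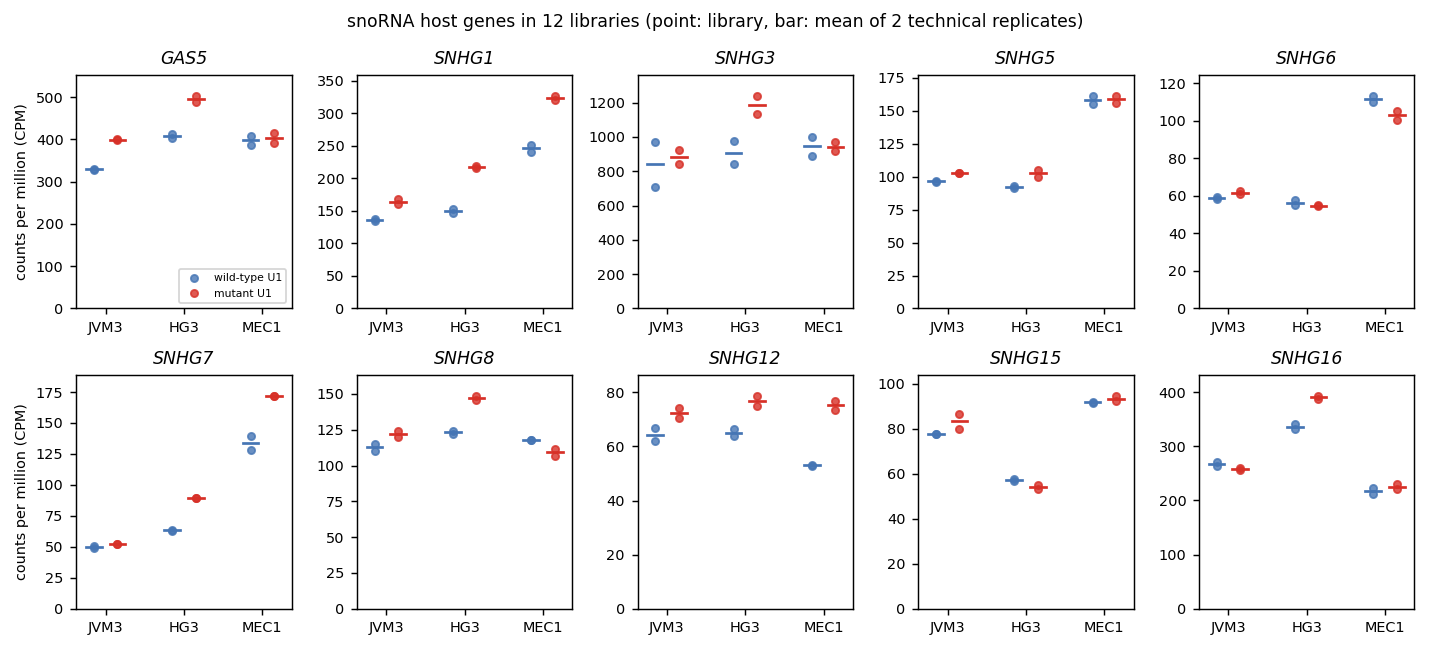
Each panel gives 1 host gene in CPM (vertical axis, starting at 0) by cell line, with a point for each library and a bar for the mean of 2 technical replicates. SNHG1 and SNHG12 are higher in mutant libraries of every line, whereas GAS5 is higher in JVM3 and HG3 and overlaps in MEC1.

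SNHG1, which hosts a series of C/D box snoRNAs in its introns, was the host called across lines. Its 2 wild-type and 2 mutant libraries read 134 and 137 against 161 and 168 CPM in JVM3. In HG3 they read 147 and 152 against 216 and 218 CPM, and in MEC1 241 and 251 against 320 and 327 CPM. Mutant libraries lay above wild-type libraries in all 3 lines without overlap. The log2 fold change across lines was 0.39 ± 0.075 (SE over 3 lines, edgeR quasi-likelihood adjusted p = 0.0401). By line it was 0.30 (JVM3), 0.55 (HG3) and 0.33 (MEC1), with edgeR adjusted p of 3.28e-08, 2.75e-16 and 3.37e-10. Of the 10 hosts, 1 rose and 0 fell across lines among 21270 genes tested. At an unadjusted p under 0.05 there were 3 hosts above 0 and 0 below, and DESeq2 called 1 and 0. Among all genes, DESeq2 called 551 higher and 775 lower of 17146 across lines. The share of all genes at an unadjusted p under 0.05 was not counted, for this or any other list or comparison. With only 2 lines in the fit the SNHG1 call was lost, at adjusted p of 0.11 without JVM3, 0.143 without HG3 and 0.0636 without MEC1.

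SNHG12 and SNHG7 host mainly H/ACA box snoRNAs. SNHG12 read 61.9 and 66.7 CPM in wild-type against 74.3 and 70.5 CPM in mutant JVM3 libraries. In HG3 it read 66.3 and 63.8 against 75.0 and 78.6 CPM, and in MEC1 53.3 and 52.7 against 76.8 and 73.5 CPM. These groups did not overlap in any line, and the log2 fold changes of 0.19, 0.25 and 0.44 each passed the test within the line (edgeR adjusted p = 0.00205, 4.01e-05 and 3.29e-10). Across lines its log2 fold change was 0.29 ± 0.080 (SE, 3 lines) with an edgeR adjusted p of 0.0958. SNHG7 read 48.8 and 50.4 against 52.5 and 52.3 CPM in JVM3, 63.6 and 63.1 against 89.0 and 89.6 CPM in HG3, and 128 and 139 against 172 and 172 CPM in MEC1. It rose in HG3 (log2 0.50, edgeR adjusted p = 8.12e-13) and MEC1 (0.30, 6.43e-08), and had a value of 0.10 in JVM3 (0.13). SNHG7 was at 0.30 ± 0.11 across lines (edgeR adjusted p = 0.107). SNHG1, SNHG7 and SNHG12 were the 3 hosts with a fold change above 0 in every line, as had 20.7% of all tested genes.

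GAS5, whose introns carry C/D box snoRNAs and whose spliced RNA builds up when cell growth stops, rose in JVM3 and HG3. It read 331 and 328 CPM in wild-type and 397 and 401 CPM in mutant JVM3 libraries, and 413 and 404 against 503 and 487 CPM in HG3. In MEC1 the groups overlapped, at 388 and 408 against 392 and 414 CPM. The log2 fold changes were 0.30 in JVM3 and 0.28 in HG3 (edgeR adjusted p = 3.84e-09 and 3.32e-09), and -0.04 in MEC1 (0.396). The difference of the GAS5 response between lines had an edgeR adjusted p of 9.77e-08.

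SNHG8 was divided in direction between lines. It read 110 and 115 against 124 and 120 CPM in JVM3, 122 and 124 against 146 and 148 CPM in HG3, and 118 and 117 against 112 and 107 CPM in MEC1. It rose in JVM3 (log2 0.14, edgeR adjusted p = 0.0104) and HG3 (0.26, 6.42e-07) and fell in MEC1 (-0.17, 0.000935). SNHG6 fell in MEC1, from 113 and 110 to 105 and 101 CPM (log2 -0.18, edgeR adjusted p = 0.000795), and had values of 0.09 in JVM3 and -0.03 in HG3 that did not pass. SNHG5 rose in HG3, from 91.4 and 92.6 to 105 and 100.1 CPM (log2 0.17, edgeR adjusted p = 0.00113), and in JVM3, from 95.8 and 97.0 to 103 and 103 CPM (0.11, 0.0392). SNHG5 in MEC1 was at -0.05 (0.319).

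SNHG16 rose in HG3, from 341 and 331 to 393 and 388 CPM (log2 0.22, edgeR adjusted p = 1.59e-06), with values of -0.03 in JVM3 and -0.01 in MEC1. SNHG15 passed only in JVM3, where 77.4 and 77.4 CPM stood against 86.7 and 79.9 CPM (log2 0.13, edgeR adjusted p = 0.0313). In MEC1 the mutant libraries of SNHG15 were above the wild-type ones in CPM although the fold change was -0.03, because fold changes also use TMM scaling factors. SNHG3 passed in no line. Its wild-type libraries were wide apart in JVM3, at 710 and 970 CPM, and its mutant libraries read 927 and 841 CPM. Only in HG3 were the SNHG3 groups apart, at 841 and 975 against 1134 and 1240 CPM (log2 0.39, edgeR adjusted p = 0.112).

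The counts of fallen hosts in JVM3 and HG3 were also 0 at an unadjusted p under 0.05, since the 8 and 7 hosts below it had values above 0, and 0 by DESeq2. Among all genes, DESeq2 called 1751 of 14672 lower in JVM3 and 3413 of 17558 lower in HG3. Both mutant libraries lay above both wild-type ones in CPM for 8 hosts in JVM3, 8 in HG3 and 4 in MEC1, as did 24.5%, 32.6% and 35.6% of all genes. The hosts' median log2 fold changes, 0.12, 0.25 and -0.04 in the same order, stood beside -0.02, 0.01 and 0.00 for all genes. The response differed between lines for 9 of the 10 hosts by an edgeR test of the difference, SNHG3 being the exception, and for 32% of all genes.

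**Figure D2:**
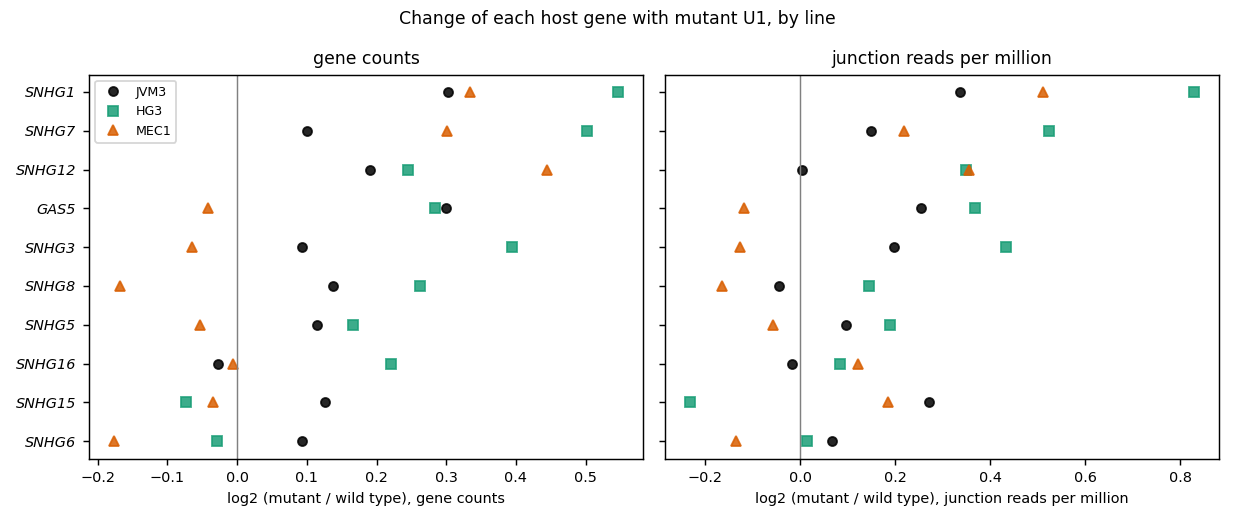
The log2 ratio of mutant to wild type (horizontal axes) is given for each host gene and line, from gene counts on the left and from junction reads scaled to the total of their column on the right. SNHG1 lies to the right of 0 in all 3 lines on both sides, and MEC1 points of GAS5, SNHG3, SNHG5, SNHG6 and SNHG8 lie to the left on both.

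Reads across splice junctions were compared with gene counts, because they come from spliced RNA only. The junction table has 1 column for each line and U1 status, so these values have no replicate within a line. It lists only introns with at least 1 alternative, so the sums leave out the other introns. Scaled to the column totals, SNHG1 junction reads had log2 ratios of 0.34 (JVM3), 0.83 (HG3) and 0.51 (MEC1), each above its gene count value. Per 100 gene counts, SNHG1 had 33.4, 32.8 and 35.3 junction reads in the wild-type groups and 35.1, 39.6 and 38.1 in the mutant groups. SNHG8 had fewer in mutant cells in each line, at 43.9, 41.5 and 53.1 against 39.8, 37.99 and 50.7. The other 8 hosts had differences of both signs. SNHG5 (99.3 to 105 over the 6 groups) and SNHG6 (83.7 to 87.3) had the most junction reads per 100 counts. SNHG3 had 2.02 to 4.31, and thus few of its counts come from the junctions listed. In GENCODE 29 the SNHG3 gene contains the abundant snoRNAs SNORA73A and SNORA73B and overlaps RCC1.

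GAS5 moved to the upstream donor of the pair printed above. The intron that ends at hg19 chr1:173834420 began at the upstream donor (chr1:173834648) in 44.0% of 3312 reads in wild-type and 70.8% of 4419 reads in mutant JVM3. In HG3 this share was 82.5% of 4523 reads and 93.5% of 5774 reads, and in MEC1 it was 29.1% of 4011 reads and 64.8% of 3809 reads. The 95% Wilson intervals, which cover counting error only, did not overlap in any line; in MEC1 they ran from 27.8% to 30.6% and from 63.2% to 66.3%. The mean gain was 24.5 ± 12.4 percentage points (SD, n = 3 lines; edgeR diffSpliceDGE adjusted p = 0.00261), and the downstream donor (chr1:173834609) lost the same share (adjusted p = 4.16e-06). The gain lost its call without JVM3 (adjusted p = 0.0571) and without MEC1 (0.185), whereas the loss at the downstream donor passed with each line left out. The lines also differed without the mutation, since wild-type HG3 used the upstream donor more than mutant JVM3 or mutant MEC1.

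A further GAS5 exon, 23 bases long, was skipped more often. The skipping junction (hg19 chr1:173833442-173833813) held 4.30% of reads at its acceptor in wild-type and 8.36% in mutant JVM3, 3.76% and 6.94% in HG3, and 2.05% and 7.93% in MEC1. The mean change of 4.38 ± 1.38 points had an edgeR diffSpliceDGE adjusted p of 1.07e-05 but lay under the 5 points asked for, so it was not called.

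SNHG16 included its 99-base exon more often. The junction from that exon to the next (hg19 chr17:74555125-74557370) held 37.5% of 1379 acceptor reads in wild-type and 58.0% of 1254 in mutant JVM3. In HG3 it held 44.7% of 1581 and 68.9% of 1188 reads, and in MEC1 46.8% of 966 and 67.2% of 997 reads. The mean gain was 21.7 ± 2.18 points (SD, n = 3 lines; edgeR diffSpliceDGE adjusted p = 0.00421). The junction that skips the exon (chr17:74553939-74557370) fell by the same 21.7 points (adjusted p = 0.00084). Without JVM3 the gain had an adjusted p of 0.0843, and the loss of the skipping junction passed with each line left out. Seen from the first donor, entry into the exon (chr17:74553939-74555027) went from 38.4% to 62.0% of donor reads in JVM3, from 46.6% to 73.9% in HG3 and from 52.0% to 69.7% in MEC1. This gain of 22.9 ± 4.85 points (adjusted p = 0.0346) did not pass with any line left out. Both the skipping and the entering intron start at the same first donor, which has G at intron base 6. The donor after the exon has A there. The total of SNHG16 rose in HG3 alone by the tests above, while the exon's share was higher in all 3 lines.

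In SNHG1 the mutant groups used an intron that is not in GENCODE 29. Whether its acceptor alone is listed there was not recorded. From the first donor shown above (hg19 chr11:62623337), reads to a site at chr11:62623217, 279 bases before the annotated acceptor at chr11:62622938, numbered 2 of 152 in wild-type and 76 of 171 in mutant JVM3. In HG3 they numbered 12 of 184 and 102 of 193, and in MEC1 3 of 277 and 136 of 364. As shares of donor reads these are 1.32% and 44.4%, 6.52% and 52.9%, and 1.08% and 37.4%, and the Wilson intervals of mutant and wild type did not overlap in any line. The mean gain was 41.9 ± 5.13 points (SD, n = 3 lines; edgeR diffSpliceDGE adjusted p = 2.15e-05), and it passed with each line left out. The annotated acceptor lost the same share, with an adjusted p of 0.0422 that did not pass with any line left out. Both sites share 1 donor, so these junctions enter only the grouping by donor, and the table lists no junction that leaves the stretch between the acceptors. With only annotated junctions summed, SNHG1 had log2 ratios of 0.31 (JVM3), 0.81 (HG3) and 0.49 (MEC1).

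**Figure D3:**
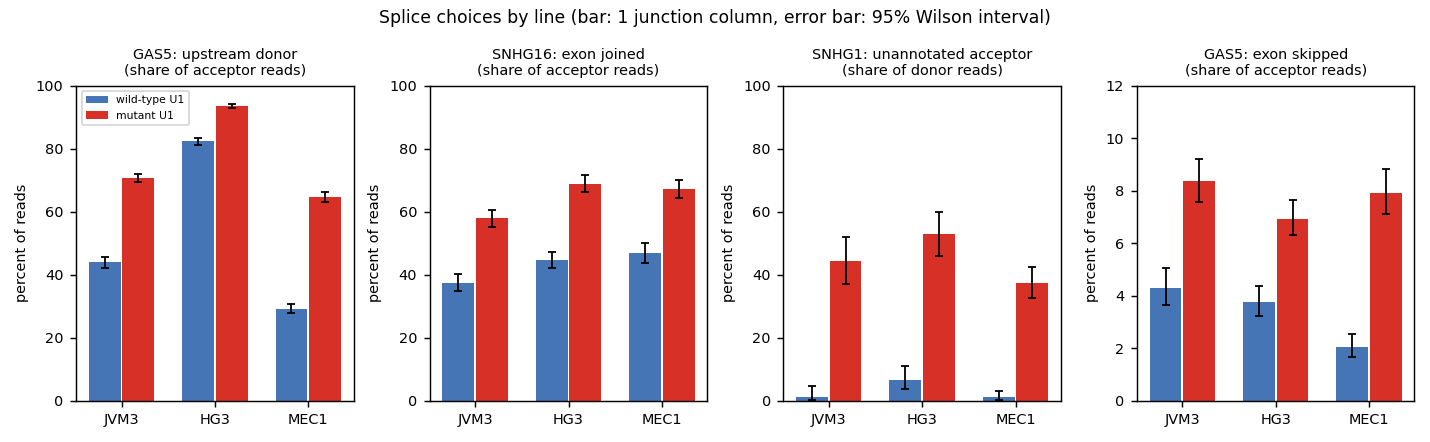
Bars give the percent of reads at a shared splice site (vertical axes, starting at 0, to 12% in the last panel and 100% in the others) for wild-type and mutant U1 in each line, with 95% Wilson intervals for counting error. Mutant bars are higher in every line for the GAS5 upstream donor, the SNHG16 exon, the unannotated SNHG1 acceptor and the skipping of the GAS5 exon.

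Other junctions of the hosts moved less. Of the 81 junctions, 40 could be tested against others with the same acceptor, and 4 were called, the pairs in GAS5 and SNHG16. Among all 35857 junctions tested this way, 2% were used more in mutant cells and 0.784% less. Grouped by donor, 38 could be tested and 4 were called, the pairs in SNHG1 and SNHG16, against 1.33% used more and 0.469% used less among 39252. Of the 63 junctions tested either way, 53 changed by under 5 points in the mean. A test of log ratios with limma called 0 host junctions under either grouping, and its adjusted p for those named was 0.116 for GAS5, 0.185 for SNHG16 and 0.0743 for SNHG1. At an unadjusted p under 0.05 and 5 points it had 4 host junctions in each grouping, and over all genes it called 291 junctions by acceptor and 0 by donor.

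The first donor of SNHG8 lost reads to its nearest acceptor, from 60.0% to 50.8% in JVM3, 47.3% to 35.5% in HG3 and 35.9% to 19.7% in MEC1. This mean change of -12.4 ± 3.54 points was not called (edgeR diffSpliceDGE adjusted p = 0.221). SNHG6, which changed in total in MEC1, skipped toward its far acceptor in 12.1% of donor reads in wild-type and 21.9% in mutant MEC1, beside 8.61% and 8.94% in JVM3 and 9.80% and 11.2% in HG3. This change was not called (adjusted p = 0.456), and its difference between lines was not tested.

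**Figure D4:**
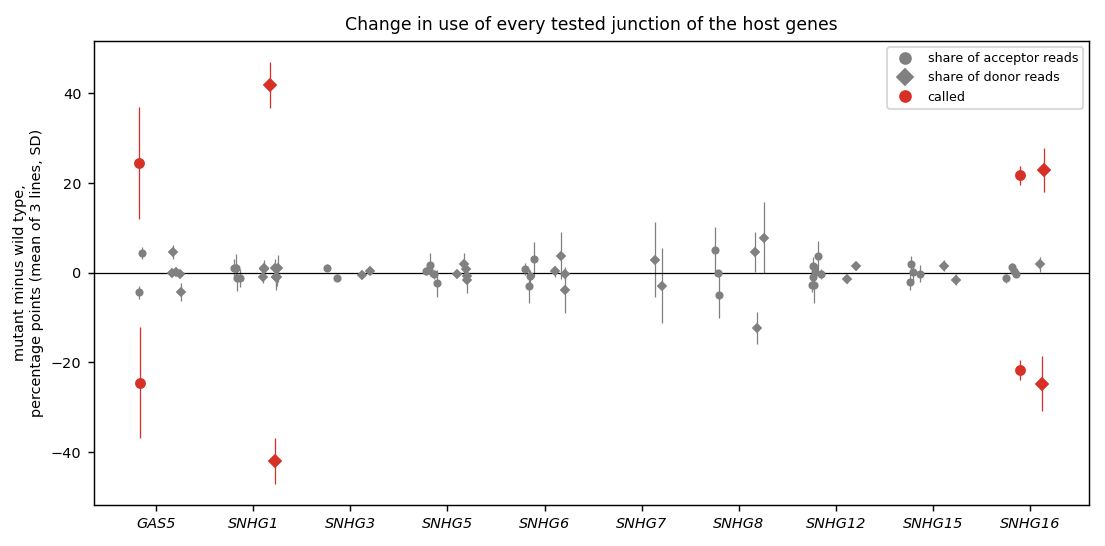
Every tested junction of the host genes is plotted by its change in percent of reads at the shared acceptor (circles) or donor (diamonds), as mutant minus wild type in percentage points, mean and SD over 3 lines. Called junctions, in red, are in GAS5, SNHG1 and SNHG16, and most of the others lie near 0.

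The letters at intron base 6 were read at 37 donors of the hosts, leaving out SNHG6. T stood there in 24, G in 6, A in 6 and C in 1. Among 46212 annotated GT donors of all genes read from transcripts, T stood there in 41.8%, G in 22.3%, A in 18.1% and C in 17.8%. The host donors are only those of listed junctions, whereas the donors of all genes were not limited in this way. The 2 sets are therefore not alike. Junctions from donors with G differed in the sign of their change. The 2 of SNHG12 had values above 0 in every line, with means of 1.32 ± 0.53 and 3.78 ± 3.31 points (SD, n = 3 lines), and were not called (edgeR diffSpliceDGE adjusted p of 1 and 0.849). The first donor of SNHG16 lost 21.7 points at the acceptor of the skipping junction, where it competes with the donor after the exon. The same donor starts the junction that enters the exon, which gained 22.9 points of donor reads. The loss at the skipping junction therefore does not measure how much the first donor was used. The first donor of SNHG1, with the change in acceptor, has T at base 6.

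The snoRNAs themselves were poorly covered. Of 34 listed snoRNAs of these hosts, 8 had a row of their own, and 3 passed the filter on low counts. Across lines 0 of these were called by edgeR or DESeq2, and 1 had an unadjusted p under 0.05. SNORA73B, of SNHG3, had 15888 to 27575 counts per library and a log2 fold change of 0.07 (edgeR adjusted p = 0.742). SNORD1B, of SNHG16, had 7 and 15 counts in wild-type and 55 and 70 in mutant HG3 libraries (5.66-fold, edgeR adjusted p = 2.51e-07). SNORD1B had 11 and 17 against 31 and 21 counts in JVM3 and 13 and 20 against 31 and 25 in MEC1, which did not pass, and a log2 fold change of 1.30 across lines (0.106). At such counts, snoRNA and unspliced intron cannot be told apart. SNORD99, of SNHG12, had a value of -0.14 (0.774).

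Among 18 other tested noncoding snoRNA hosts, 1 rose across lines and 0 fell. That was SNHG14, the host of the imprinted snoRNA clusters next to SNRPN (log2 0.54 ± 0.067, SE; edgeR adjusted p = 0.0274), which stood at 0.225 CPM in wild-type JVM3 against 43.0 in HG3 and 44.8 in MEC1. DESeq2 also called 1 and 0, and 2 and 0 had an unadjusted p under 0.05. Their median was 0.08, beside 0.10 for the 10 hosts and -0.01 for all genes. Of 44 protein-coding snoRNA hosts, 0 rose and 2 fell, the ribosomal protein gene RPL12 (-0.57 ± 0.18, adjusted p = 0.0425) and WDR43, a factor of the small ribosomal subunit's assembly (-0.77 ± 0.098, 0.0056), and their median was -0.01. DESeq2 called 1 and 2, and 2 and 3 had an unadjusted p under 0.05.

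The decay machinery was looked at as a list of 20 tested genes, of which 0 rose and 1 fell (1 and 1 by DESeq2, 4 and 2 at an unadjusted p under 0.05). DCP2, the catalytic subunit that removes the cap, fell (-0.63 ± 0.12, SE over 3 lines; edgeR adjusted p = 0.0143), with -0.55 in JVM3, -0.86 in HG3 and -0.48 in MEC1. UPF1, the helicase at the centre of the pathway, had a value of 0.23 (0.179), SMG6, its endonuclease, 0.49 (0.111) and SMG9, a part of the kinase complex that acts on UPF1, 0.57 (0.0576). Below 0 were XRN1, the exonuclease that degrades uncapped RNA, at -0.25 (edgeR adjusted p = 0.12), and NBAS at -0.18 (0.254). Within lines XRN1 fell in JVM3, HG3 and MEC1, by 0.13, 0.34 and 0.26 on the log2 scale (edgeR adjusted p = 0.00619, 1.15e-09 and 9.63e-07). By the same tests 12%, 19.6% and 18.6% of all genes fell. Most of the list went the other way, since 14, 12 and 14 of the 20 genes had values above 0 in these lines. Among all 21270 genes, 9843, 10831 and 10119 did. Of 21 other transcripts known as decay targets, 2 rose and 0 fell (2 and 0 by DESeq2, 4 and 4 at an unadjusted p under 0.05). These were GADD45A (0.50 ± 0.11, edgeR adjusted p = 0.0293) and GADD45B (0.50 ± 0.15, 0.0367), stress-response genes with short-lived messages. The median of the list was 0.07. SMG1, SMG5, UPF1 and UPF2 are in this list and in that of the decay machinery, so the lists overlap. Gene counts do not separate isoforms cleared by decay from other isoforms of the same gene.

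Over the 12 libraries, each host's log2 CPM was set against the mean of the other 9 after each line was centred on its own mean. The correlation was highest for SNHG1 (Pearson r = 0.94) and SNHG7 (0.89), and was -0.31 for SNHG6 and -0.11 for SNHG15. Among 9618 other genes at 10 CPM or more, CLDN15 (0.985), TRIM23 (0.983), YIPF1 (0.979), SCARNA7 (0.978) and ERMARD (0.977) were most like the hosts' mean. These are descriptions over libraries that share lines, replicates and scaling.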

How the data were processed

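RNA-seq of 12 libraries was used. Per the submitters' processing notes, reads were handled with STAR 2.5.4b and HTSeq 0.9.1 against hg19/GRCh37. The deposited values are raw read counts per gene and raw read counts per splice junction, the latter in 1 column per line and U1 status. Neither the strand setting nor the annotation release nor the junction tool is given in the sources used here. Antisense or overlapping genes (GAS5 with GAS5-AS1 and ZBTB37, SNHG3 with RCC1, SNHG6 with MCMDC2, SNHG7 with FAM69B, SNHG12 with TRNAU1AP) may therefore share reads. Unassigned records (multiply aligned, 0.9% to 1.06% ambiguous, 17.7% to 24.9% outside genes) stayed out of library sizes.

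Symbols came from a table that named 39538 of the 57820 IDs. The gene test was that of edgeR 4.0.16 (quasi-likelihood, robust, TMM, filterByExpr over the 6 groups, Benjamini-Hochberg over 21270 genes, threshold 0.05). Across lines, technical replicates were summed to 3 against 3 libraries with the line as a term. For tests within a line, and of how lines differ, all 12 libraries formed 6 groups. CPM use the reads in genes, fold changes also the TMM factors. Technical replicates differed by more than counting noise (mean chi-square 2.14 to 4.8 per gene). Junctions with at least 20 reads were compared with those sharing an acceptor (or donor) by edgeR's diffSpliceDGE. Called junctions had 1 sign in all 3 lines, moved by 5 percentage points or more in the mean and had an adjusted p below 0.05. Junctions were assigned to genes by exact intron lengths of GENCODE 29 at 1 constant offset, with 2 (SNHG3) to 11 (SNHG1) matching introns per gene against 1 at the next best place. Scripts were tested on simulated data.

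The members, gene lists and rules were chosen with earlier results of these data known. All 10 members are named, of each other list those that passed across lines (up to 4 per direction), the 5 genes most like the members' mean, and every called junction. UPF1, SMG6, SMG9, XRN1, NBAS, the snoRNAs and the junctions not called were named after their values were seen. Alternatives were RLE factors, DESeq2 1.42.0, no filter, unsummed libraries, a replicate block, each line or library left out, and for junctions 50 reads, 10 points, grouping by donor and limma 3.58.1. Leaving out lines and limma under the donor grouping were added after seeing the data.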

Additional observations from a re-analysis of the deposited data

Results flagged for a closer look

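The response to mutant U1 differed between the 3 lines for 9 of the 10 host genes by an edgeR test of the difference, whose adjusted p was 9.77e-08 for GAS5, 0.000418 for SNHG1, 0.00481 for SNHG5, 0.00242 for SNHG6, 1.55e-05 for SNHG7, 1.79e-07 for SNHG8, 0.00688 for SNHG12, 0.0247 for SNHG15 and 0.000111 for SNHG16. The test uses the spread between technical replicates and was passed by 32% of all genes. Line and preparation cannot be told apart, since each genotype of a line has 1 label and 2 technical replicates. SNHG1 and SNHG12 rose in each line and differed in size only. SNHG8 passed the test in both directions, and GAS5 was at 0.30, 0.28 and -0.04 in JVM3, HG3 and MEC1.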

How the results depend on the processing

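The count of hosts called across lines, 1, was 4 with 12 unsummed libraries and 4 with the replicate block (SNHG1, GAS5, SNHG7 and SNHG12 both times), which treat technical replicates as independent. It ranged from 0 to 1 when a line or library was left out. Whether the replicate numbers pair the libraries was not settled, since a correlation over genes does not show how libraries were prepared. Deviations between replicates correlated between mutant and wild type at 0.048, 0.136 and 0.265 in JVM3, HG3 and MEC1. The JVM3 count, 6, ranged down to 2 without 1 library. With no filter 1 snoRNA of the hosts was called across lines, against 0. Called host junctions numbered 4 by acceptor, 0 by limma and 2 to 4 without a line. By donor they numbered 4, 0 by limma and 2 (without JVM3 or MEC1) or 3 (without HG3) with a line left out. Each count takes in any host junction called under that setting, so the junctions need not be those named above. Small values changed sign. SNHG15 across lines, 0.003, was -0.0017 with RLE factors, -0.0016 with DESeq2, -0.018 with no filter and -0.069 to 0.043 without a line or library (-0.020, -0.0045 and -0.011 without replicate 1 of mutant JVM3, HG3 and MEC1). Without MEC1, SNHG6 across lines was 0.038. Without HG3, SNHG8 was -0.018 and SNHG16 -0.020 (up to 0.20 and 0.10 without MEC1). SNHG3 in JVM3 was -0.12 without wild-type replicate 1 and 0.35 without replicate 2, and in MEC1 0.029 without wild-type replicate 2 and -0.15 without replicate 1. SNHG16 in MEC1 was 0.037 without wild-type replicate 2 , 0.016 without mutant replicate 1 and -0.043 without wild-type replicate 1. The cause of these changes was not tested. Over all genes, calls across lines went from 784 to 1326 with DESeq2, 2540 with no filter, 6641 unsummed, 5084 with the replicate block, and 320 to 380 without a line.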
